A study of Homo sapiens with 31 samples.

Results

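The lymphoid lineage genes examined here are 29 of the 20163 protein-coding genes on chromosomes 1 to 22, X and Y. They were listed by name, as genes of T and B cell identity. No measured value was a criterion, but earlier results of these data were known when the list was made. A ChIP-seq peak was given to one of these genes when its summit lay within 100 kb of the gene's transcription start site (TSS) and no other protein-coding TSS was nearer. Peaks are regions where DNA recovered with an antibody stood out over an input of unprecipitated chromatin. The peak lists of 13 libraries were used, of 31 samples in the study. In unmodified MUTZ3 cells (genotype WT, untreated) there was 1 EVI1 list and 1 CTBP2 list. MUTZ3 is a line of acute myelomonocytic leukemia with a rearrangement that activates EVI1. For MOLM1, a line from chronic myeloid leukemia in blast crisis, there was 1 CTBP2 list from untreated cells that carried a doxycycline-inducible short hairpin against EVI1. MUTZ3 cells with the retroviral vector p50MX-3xFLAG-3xNLS-4xPLASS-Zeo, the control peptide, gave 2 CTBP2 lists. MUTZ3 cells with pCW-4xPLDLS, a doxycycline (dox) inducible peptide that carries repeats of the motif by which EVI1 binds CTBP2, gave 2 lists for each target from untreated cells and 2 from cells with dox, at 72 hours. The untreated cells of this line carried the same vector. All chromatin was crosslinked with DSG and formaldehyde, except for CTBP2 in unmodified MUTZ3 cells, where a single crosslink was used.

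EVI1 is a zinc finger transcription factor that is normally active in blood stem cells, and CTBP2 is a co-repressor that binds no DNA sequence itself and is brought to chromatin by factors such as EVI1. Many genes that define T and B cells are used little in myeloid cells, although others of the list, such as CD4, IKZF1 and NOTCH1, are also active in myeloid or progenitor cells. CD7 and CD2 are at times found on leukemic myeloid blasts. The members comprise 7 genes of the T cell receptor complex and its signalling (CD3D, CD3E, CD3G, CD247, LCK, ZAP70, LAT), 5 T cell surface molecules (CD2, CD5, CD7, CD4, CD8A), 5 regulators of the T lineage (TCF7, LEF1, BCL11B, GATA3, NOTCH1) and 2 of the B lineage (PAX5, EBF1). They further comprise 5 B cell receptor and surface genes (CD79A, CD79B, MS4A1, BLNK, BLK), 3 genes of receptor gene recombination and interleukin 7 signalling (RAG1, RAG2, IL7R) and 2 Ikaros family factors (IKZF1, IKZF3). Peaks measure binding and not expression, so the labelled cell type could not be checked against marker transcripts here.

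The lists held between 6688 and 72214 peaks. Read counts are not given in them, and the sequencing depth is therefore unknown. The lists of the 4xPLASS cells stood apart from each other, with 6688 peaks in replicate 1 and 31310 in replicate 2. The labels do not say that replicates came from separate cultures, so the spread between them may be technical. The stretch of DNA nearest to a member's TSS and within 100 kb of it had a median length of 87.5 kb, against 59.9 kb for the 20134 other genes, and a longer stretch can hold more peaks. Of the sites nearest to a member, the farthest that was counted lay 93363 bp away (ZAP70, fold enrichment 9.09 in CTBP2 untreated replicate 1), and the nearest that was not counted lay at 151379 bp (LAT, 7.22).

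In unmodified MUTZ3 cells, EVI1 peaks were nearest to 19 of the 29 lymphoid genes (65.5%), against 44.5% of all other genes. CTBP2 peaks were nearest to 18 of 29 (62.1%), against 35.3% of all other genes. Both proteins had a peak at 15 of the 29 (51.7%), against 28.4%. By role, EVI1 had a peak at 5 of 7 T cell receptor genes, 4 of 5 T cell surface genes, 4 of 5 T lineage regulators, 3 of 5 B cell receptor and surface genes and 1 of 2 B lineage regulators. CTBP2 had a peak at 4, 4, 5, 2 and 0 of these groups. CD3G, the gamma chain of the T cell receptor complex, and MS4A1, which encodes the B cell antigen CD20, had no peak in any of the 13 lists. EBF1, a regulator of early B cells, had 5 peaks over the 13 lists and none in unmodified cells, MOLM1 or 4xPLASS cells. RAG1 and RAG2, the recombinase of antigen receptor genes, also had 5 peaks each over the lists and none in any EVI1 list, apart from 1 for RAG1 in EVI1 dox replicate 1.

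The peaks were unevenly spread over the members. NOTCH1, a receptor whose signal starts T cell development, had 9 EVI1 and 9 CTBP2 peaks in unmodified cells, and IKZF1, the Ikaros factor of early lymphoid cells, had 6 and 10. These 2 genes held 15 of the 43 EVI1 peaks of the members and 19 of the 47 CTBP2 peaks. Per Mb of the DNA assigned to them, the members had 16.4 EVI1 peaks against 11.7 for all other genes, and 17.9 CTBP2 peaks against 8.91. Without NOTCH1 and IKZF1, a choice made after seeing the values, the members had 11.9 per Mb for both proteins. In unmodified cells, the EVI1 density of the other 27 members was thus 11.9 against 11.7 for all other genes. In the EVI1 lists of the inducible cells, these 27 members lay further above all other genes. Without dox they had 42.4 and 59.4 per Mb, against 27.8 and 38.5. With dox they had 43.7 and 36.5 per Mb, against 29.04 and 25.7. In all 13 lists, the density over the 29 members was above that of all other genes.

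The strongest member peak of both unmodified lists lay within NOTCH1 (chr9:139388885-139440500, minus strand, hg19). For CTBP2 it covered chr9:139422803-139423110, 17560 bp downstream of the TSS, with a fold enrichment of 23.1 over the local background, rank 74 of 16836 peaks. For EVI1 it lay at the same place (17541 bp downstream), with a fold enrichment of 34.1, rank 77 of 21505. Ranks are by fold enrichment within a list.

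IKZF1 (chr7:50343664-50472799, plus strand) came next in both lists, but by different elements. Its strongest CTBP2 peak was 80777 bp downstream of the TSS, within the gene, with a fold enrichment of 14.0 and rank 495. Its strongest EVI1 peak was at -90559 bp from the TSS, upstream of the gene, with a fold enrichment of 24.2 and rank 298. Both elements had a peak of both proteins in unmodified cells, with 14.9 for EVI1 at the downstream element and 6.77 for CTBP2 at the upstream element.

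Next among the CTBP2 peaks were those of LEF1, a nuclear partner of Wnt signals in T cells (13.8, rank 522), and LAT, the adaptor that carries the T cell receptor signal (11.7, rank 918). CD3E, the epsilon chain of the receptor complex (10.6, rank 1218), and LCK, the kinase that starts that signal (8.66, rank 2132), followed. IL7R, the interleukin 7 receptor, had a fold enrichment of 8.0 at rank 2643, and CD2, an adhesion molecule, 7.2 at rank 3549. For EVI1, the order after IKZF1 was CD7, a surface antigen of T cells and of some leukemic blasts (18.6, rank 631), CD3E (15.4, rank 1073), LAT (15.4, rank 1090) and CD2 (12.6, rank 1791). GATA3, a T helper cell regulator, followed with 11.6 at rank 2273 and LCK with 9.92 at rank 3343. CD7 was thus among the strongest members for EVI1, while its CTBP2 peak at the same element had a fold enrichment of 5.43 and rank 7930 in the single-crosslink list. At this element CTBP2 had 26.5 in MOLM1, 17.5 and 7.30 in untreated inducible cells and 4.13 and 7.54 in 4xPLASS cells. The median rank of all member peaks was at 45.4% of the unmodified EVI1 list and 47.1% of the unmodified CTBP2 list. A list's own median is near 50%, and a lower percent means stronger peaks. In the inducible EVI1 lists it was at 55.2% and 52.7% without dox and 58.3% and 59.1% with dox. For CTBP2 it was at 51.6% and 49.8% without dox and 48.4% and 46.1% with dox. It was at 48.9% in MOLM1 and at 33.2% and 30.5% in 4xPLASS cells.

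Sequence is shown for 5 CTBP2 sites of the inducible cells, as a stretch of the hg19 plus strand centred on the summit in untreated replicate 1. LAT and IKZF1 are among the 6 strongest member sites, and GATA3, CD5 and CD247 are among the 6 strongest that had no peak with dox. Capitals mark letters that match AGATGAG (part of the motif of the second zinc finger domain of EVI1), AGATAAG (part of that of the first, also a GATA motif), AGGAAGT (ETS), TGTGGT (RUNX) or CAGCTG (an E-box) on either strand.
LAT (chr16:29020706-29020826): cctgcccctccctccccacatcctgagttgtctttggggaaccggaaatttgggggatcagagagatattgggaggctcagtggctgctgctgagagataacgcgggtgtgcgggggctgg
IKZF1 (chr7:50253106-50253226): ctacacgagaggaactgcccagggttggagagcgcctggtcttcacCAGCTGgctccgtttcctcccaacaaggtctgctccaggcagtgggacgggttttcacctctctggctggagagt
GATA3 (chr10:8179733-8179853): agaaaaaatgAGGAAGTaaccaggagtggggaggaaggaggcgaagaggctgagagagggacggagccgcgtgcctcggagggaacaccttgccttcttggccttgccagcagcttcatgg
CD5 (chr11:60859888-60860008): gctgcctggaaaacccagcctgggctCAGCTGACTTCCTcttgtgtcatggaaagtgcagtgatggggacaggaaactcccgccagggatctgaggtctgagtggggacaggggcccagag
CD247 (chr1:167424803-167424923): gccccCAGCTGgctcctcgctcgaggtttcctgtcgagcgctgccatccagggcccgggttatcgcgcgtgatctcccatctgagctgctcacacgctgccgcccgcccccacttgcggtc
The LAT sequence held none of these letters. IKZF1 and CD247 held the E-box, and GATA3 held the ETS letters. In CD5 the E-box was directly followed by the ETS letters on the other strand. From the same sets of sites, the stretches at NOTCH1, ZAP70, LCK, CD3D, CD4 and PAX5, which are not shown, held none of these letters. Over 300 bases around the summit, CAGCTG was found in 28 of 86 member CTBP2 sites (32.6%) and in 22.1% of the 31948 sites at other genes. AGATGAG was found in 9 (10.5%) against 6.05%. AGGAAGT was in 15.1% against 18.1%, TGTGGT in 16.3% against 22.8% and AGATAAG in 2.33% against 3.13%. At the 96 member EVI1 sites, CAGCTG was in 34 (35.4%) against 23.1% at other genes, and AGATGAG in 14 (14.6%) against 7.26%. TGTGGT was in 26% against 23.1%, AGGAAGT in 14.6% against 17.5% and AGATAAG in 3.13% against 4.00%. None of these words contains another. The median GC content of the windows was 57.0% for members and 57.7% for other genes at CTBP2 sites, and 57.0% and 57.3% at EVI1 sites. These shares describe the letters in the windows, and no factor's binding was tested with them.

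Binding near the lymphoid genes was mostly away from promoters. Of the 43 member EVI1 peaks in unmodified cells, 2 had the summit within 1 kb of the TSS (4.65%, 95% Wilson interval 1.28 to 15.5), against 28.5% of the peaks at other genes (27.8 to 29.1). Of the 47 CTBP2 peaks, 6 did (12.8%, 5.98 to 25.2), against 25.9% (25.1 to 26.6). The intervals cover counting error only, and peaks of one gene are not independent. The genes with an EVI1 peak at the promoter were IKZF1 and LCK, 2 of 29 (6.90%) against 21.7% of all other genes. Those with a CTBP2 promoter peak were IKZF1, LCK, NOTCH1 and CD8A, the co-receptor of cytotoxic T cells, 4 of 29 (13.8%) against 15.1%. A distal peak was present at 19 of 29 members for EVI1 (65.5%, against 32.1%) and at 17 of 29 for CTBP2 (58.6%, against 26.4%). The promoter share of member peaks was below that of other genes in all 13 lists, and the 2 intervals did not overlap in 11 of them. How far the longer stretches of DNA assigned to the members enter this share was not tested.

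Where EVI1 bound near a lymphoid gene, CTBP2 was often called too. In unmodified cells, 29 of the 43 member EVI1 peaks overlapped a CTBP2 peak by at least 1 bp (67.4%, 52.5 to 79.5), against 42.0% (41.3 to 42.7) at other genes. In the other direction, 28 of 47 member CTBP2 peaks overlapped an EVI1 peak (59.6%, 45.3 to 72.4), against 54.7% (53.8 to 55.5), so that the intervals overlapped. ZAP70, the kinase that binds the activated receptor, had 3 EVI1 peaks and no CTBP2 peak. PAX5, the B lineage regulator, the B cell adaptor BLNK and the co-receptor CD4 each had 1 EVI1 peak and no CTBP2 peak. CD8A had 2 CTBP2 peaks, and BCL11B and IKZF3 had 1 each, with no EVI1 peak. The EVI1 and CTBP2 lists of unmodified cells differed in crosslink. In the untreated inducible cells, crosslinked with DSG, ZAP70, PAX5, BLNK and CD4 had CTBP2 peaks in both libraries. CD8A and BCL11B had EVI1 peaks in both libraries there, and IKZF3 in replicate 2 only. Of the 96 member EVI1 sites called in both of these untreated libraries, 72 were also a CTBP2 site (75.0%), against 77.6% at other genes. The higher overlap of member EVI1 peaks in unmodified cells was thus not seen there.

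In MOLM1, CTBP2 peaks were nearest to 26 of the 29 lymphoid genes (89.7%), against 71.2% of all other genes, with 146 member peaks. The 3 members without one were EBF1, CD3G and MS4A1. All 18 members with a CTBP2 peak in unmodified MUTZ3 cells had one in MOLM1, as did 6730 of the 7104 other genes with a MUTZ3 peak. Of the 11 without one in MUTZ3, 8 had one in MOLM1 (72.7%), against 58.4% of all other genes: ZAP70, CD3D, CD4, PAX5, RAG1, RAG2, BLNK and BLK. The MOLM1 list was longer, with 64569 peaks against 16836. With the 16836 strongest MOLM1 peaks, 18 of 29 members had one (62.1%, against 35.3% of all other genes). Of these 18 members, 14 also had one in MUTZ3, as did 4619 of the 7110 other genes. BLK, a B cell kinase, BLNK, CD4 and ZAP70 then had a peak in MOLM1 only, and LCK, CD8A, BCL11B and CD79B, a signalling chain of the B cell receptor, in MUTZ3 only. BLNK had its strongest MOLM1 peak 35331 bp downstream of the TSS with a fold enrichment of 23, rank 1770 of the full list, and BLK had one 72066 bp downstream with 21.0, rank 2457. IL7R had 7 peaks in MOLM1 and 2 in MUTZ3, with a strongest fold enrichment of 21.1 in MOLM1 and 8.0 in MUTZ3. At NOTCH1, the MOLM1 list had a peak with a fold enrichment of 23.8 at the site -12564 bp from the TSS, where no peak was called in unmodified MUTZ3 cells. At the IKZF1 site -85857 bp from the TSS, the fold enrichment was 29.3 in MOLM1 and 4.70 in unmodified MUTZ3 cells. In untreated inducible MUTZ3 cells, crosslinked as MOLM1 was, ZAP70, CD3D, CD4, PAX5, BLNK and BLK had CTBP2 peaks in both libraries. RAG1 and RAG2 had 1 each, in replicate 2 only. There the NOTCH1 site had 8.38 and 9.65, and the IKZF1 site 5.69 and 4.07. Between unmodified MUTZ3 and MOLM1, there was 1 library for each line and the crosslinking differed. The cell line, the crosslink and the library therefore cannot be told apart. At the level of sites, 36 of the 47 MUTZ3 member peaks overlapped a MOLM1 peak (76.6%, 62.8 to 86.4), against 71.0% (70.2 to 71.8) at other genes.

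In the 4xPLASS cells, 9 members had a CTBP2 peak in both libraries (31.0%), against 18.2% of all other genes: NOTCH1, IKZF1, GATA3, LEF1, LAT, LCK, CD3E, CD2 and CD7. Replicate 1 had a peak at these 9 alone, against 18.7% of all other genes. Replicate 2 had a peak at 23 members (79.3%), against 52.9%. The count thus rests on the shorter list. In replicate 1, the NOTCH1 element that led the unmodified list was again the strongest, with a fold enrichment of 14.5 at rank 85 of 6688. In replicate 2 the same element had 13.9 at rank 1220 of 31310, behind peaks of IKZF1 (25.5, rank 132), LAT (24.8, rank 163) and CD3E (15.2, rank 900). Of the 17 member peaks of replicate 1, 15 overlapped a CTBP2 peak of unmodified cells (88.2%, 65.7 to 96.7), against 80.2% at other genes. Of the 69 of replicate 2, 32 did (46.4%, 35.1 to 58.0), against 41.6%. Both shares of other genes lay inside the members' intervals.

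Lists of other lineages were set beside the members by their counts. In the unmodified CTBP2 list, 24 of 46 other lymphoid genes had a peak (52.2%), 16 of 29 neutrophil and monocyte genes (55.2%) and 14 of 29 erythroid and megakaryocyte genes (48.3%), against 18 of 29 for the members. In the unmodified EVI1 list, these numbers were 32 of 46 (69.6%), 19 of 29 (65.5%) and 17 of 29 (58.6%), against 19 of 29. Per Mb, CTBP2 had 14.0 peaks at the other lymphoid genes, 16.9 at the neutrophil and monocyte genes and 25.4 at the erythroid and megakaryocyte genes, against 17.9 at the members. EVI1 had 18.0, 26.9 and 25.4, against 16.4. The share of members with a peak was thus above that of all other genes in these 2 lists, as was the share of each of the other 3 lists.

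**Figure D1:**
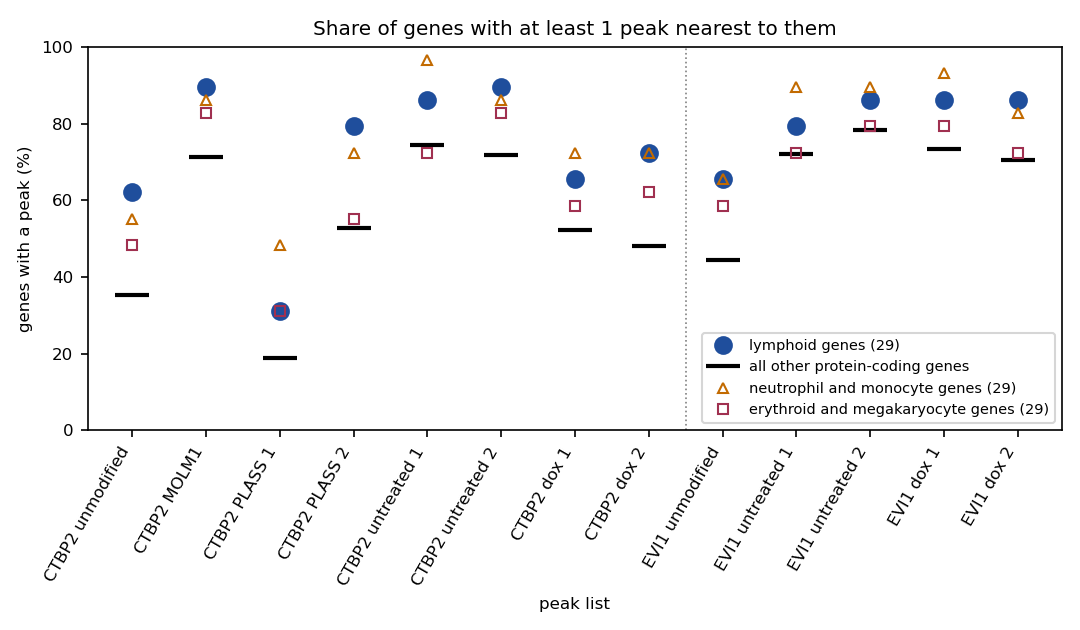
Percent of genes with at least 1 peak (vertical axis) in each of the 13 peak lists (horizontal axis, CTBP2 left of the dotted line) for the 29 lymphoid genes (blue), all 20134 other protein-coding genes (black bars) and 2 lists of 29 myeloid and 29 erythroid or megakaryocyte genes. The lymphoid genes lie above all other genes in each list, for example 62.1% against 35.3% for CTBP2 in unmodified cells, and so do the neutrophil and monocyte genes.

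The inducible cells address whether CTBP2 and EVI1 stay at chromatin when the PLDLS peptide is made. Without dox, 24 of 29 members had a CTBP2 peak in both libraries (82.8%), against 67.4% of all other genes, and with dox 18 did (62.1%), against 42.2%. The numbers of member CTBP2 peaks were 168 and 125 without dox (mean 146.5 ± 30.4, SD, n = 2) and 52 and 55 with dox (53.5 ± 2.12). Both values with dox lay below both without. The log2 ratio of the means was -1.45 for the members and -1.32 for all other genes. By an exact permutation test (two-sided) p was 0.33, the smallest that 2 libraries against 2 allow. When the 4 lists were cut to the 23878 strongest peaks each, which removes the difference in list length, the log2 ratio of the members was -0.13. Such a cut also removes any change in peak number that is shared by all genes. This value can therefore not show whether there was such a change, and it was not computed for all other genes.

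For EVI1, 23 of 29 members had a peak in both untreated libraries (79.3%), against 69.5% of all other genes, and 24 in both with dox (82.8%), against 67.5%. The numbers of member EVI1 peaks were 127 and 179 without dox (153.0 ± 36.8, SD, n = 2) and 135 and 114 with dox (124.5 ± 14.8). These ranges overlapped, with a log2 ratio of -0.30 (exact two-sided permutation p = 0.67) for the members and -0.28 for all other genes. Without untreated replicate 1 the ratio was -0.52, and without untreated replicate 2 it was -0.03.

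By gene, 17 of the 27 members with a CTBP2 peak in at least 1 of the 4 libraries had fewer peaks in each dox library than in each untreated library (63.0%), against 49.3% of all other genes. No member had more peaks in each dox library, and 75 of 16106 other genes did. The 17 were all T lineage regulators except TCF7, both co-receptors, CD2, CD5, CD7, CD247, CD3D, ZAP70, LAT, PAX5, BLNK, BLK and IKZF1. With lists of equal length, 2 of 27 members had fewer CTBP2 peaks in each dox library (CD3D and CD4, 7.41%), against 9.36%. For EVI1, 5 of 26 members had fewer peaks in each dox library (BCL11B, BLK, CD79B, GATA3 and LAT, 19.2%), against 10.7%. No member had more, and 544 of 16790 other genes did. Without untreated replicate 1, 18 members had fewer EVI1 peaks with dox, and without dox replicate 1, 10 had fewer. The shares of all other genes were not computed with a library left out.

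NOTCH1 had 24 and 14 CTBP2 peaks without dox and 6 and 8 with dox, and 13 and 23 EVI1 peaks without dox and 17 and 15 with dox. IKZF1 had 14 and 16 CTBP2 peaks without dox and 6 and 10 with dox, and 14 and 16 EVI1 peaks without dox and 15 and 13 with dox. For both genes, the CTBP2 ranges were apart and the EVI1 ranges touched or overlapped. In the other lists, NOTCH1 had 19 CTBP2 peaks in MOLM1 and 4 and 11 in 4xPLASS cells, and IKZF1 had 23 and then 4 and 9.

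**Figure D2:**
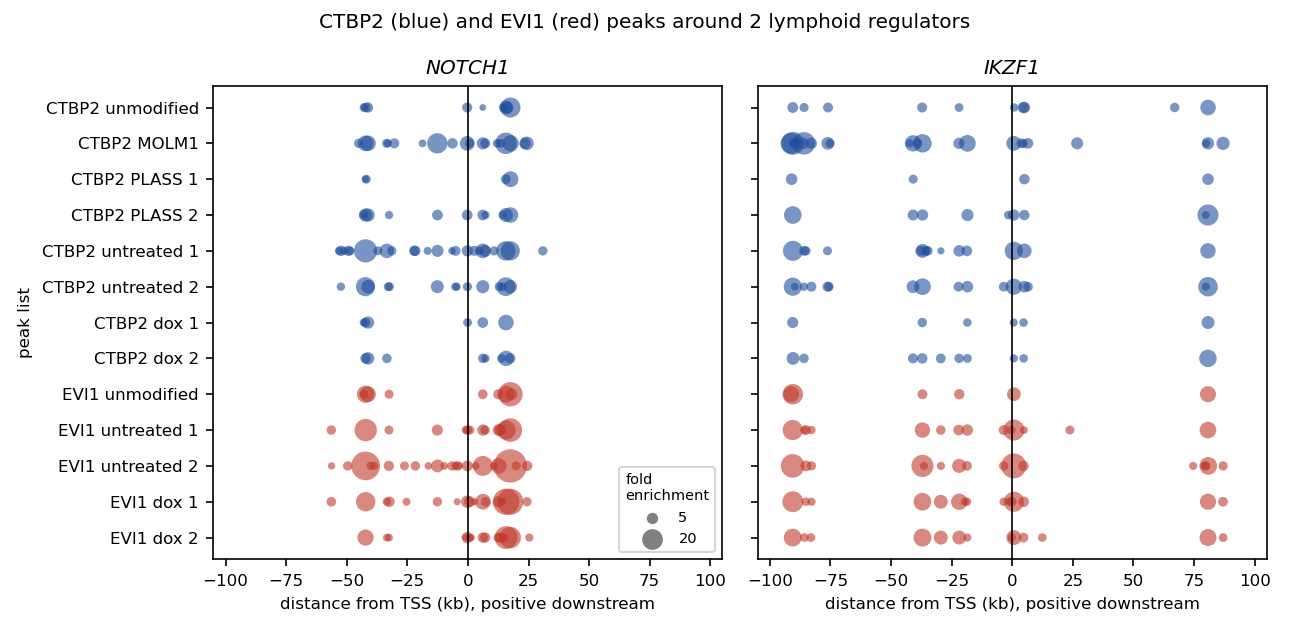
Summits of the CTBP2 (blue) and EVI1 (red) peaks nearest to NOTCH1 (left) and IKZF1 (right) by distance from the TSS in kb (horizontal axis, positive downstream) in each of the 13 lists (vertical axis). The size of a point is the fold enrichment of the peak. Points recur at the same distances in most lists, and the CTBP2 rows with dox hold fewer points than those without (6 and 8 against 24 and 14 for NOTCH1).

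LAT had 22 and 8 CTBP2 peaks without dox and 6 and 6 with dox, 12 and 19 EVI1 peaks without dox and 11 and 11 with dox. The untreated libraries thus lay further apart for LAT than the dox libraries did. In the other lists it had 3 (CTBP2, unmodified), 2 (EVI1, unmodified), 5 (MOLM1), 1 and 5 (4xPLASS). CD2 had 7 and 7 CTBP2 peaks without dox and 3 and 3 with dox, while its EVI1 peaks were 7 and 8 without dox and 8 and 8 with dox. CD2 further had 2 CTBP2 peaks and 1 EVI1 peak in unmodified cells, 11 in MOLM1 and 1 and 5 in 4xPLASS cells. For CD2 the replicates were the same or differed by 1 peak in each inducible group.

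CD5, an inhibitory receptor of T cells, had 11 and 7 CTBP2 peaks without dox and 2 and 1 with dox, and 9 and 12 EVI1 peaks without dox and 9 and 6 with dox. CD247, the zeta chain of the receptor, had 10 and 6, then 2 and 3 for CTBP2, and 8 and 11, then 10 and 6 for EVI1. CD7 had 11 and 4, then 3 and 2 for CTBP2, and 4 and 8, then 5 and 7 for EVI1. All 3 genes had CTBP2 ranges that were apart and EVI1 ranges that touched or overlapped. In unmodified cells, CD5 had 1 CTBP2 and 2 EVI1 peaks, CD247 had 1 and 1 and CD7 had 2 and 2. In MOLM1 they had 8, 7 and 8 CTBP2 peaks, and in the 4xPLASS libraries 0 and 2, 0 and 3, and 1 and 3.

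ZAP70 had 7 and 3 CTBP2 peaks without dox and 2 and 2 with dox, and 8 and 10 EVI1 peaks without dox and 8 and 7 with dox. It had 3 CTBP2 peaks in MOLM1 and 0 and 1 in 4xPLASS cells. PAX5 had 7 and 8 CTBP2 peaks without dox and 2 and 1 with dox, against 7 and 8, then 7 and 7 for EVI1. In the remaining lists, PAX5 had 1 EVI1 peak in unmodified cells, 3 CTBP2 peaks in MOLM1 and 0 and 1 in 4xPLASS cells. For both genes, each dox library held fewer CTBP2 peaks than each untreated library.

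GATA3 had 4 and 8 CTBP2 peaks without dox and 1 and 1 with dox, and 7 and 8 EVI1 peaks without dox and 5 and 2 with dox. It was the only one of these 11 genes besides LAT with fewer EVI1 peaks in each dox library. It had 1 CTBP2 and 1 EVI1 peak in unmodified cells, 11 CTBP2 peaks in MOLM1 and 1 and 3 in 4xPLASS cells. CD3E had 3 and 6 CTBP2 peaks without dox and 4 and 2 with dox, and 4 and 3 EVI1 peaks without dox and 5 and 4 with dox. Its groups overlapped for both proteins. It had 4 CTBP2 and 5 EVI1 peaks in unmodified cells, 6 CTBP2 peaks in MOLM1 and 3 and 3 in 4xPLASS cells.

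The remaining 16 members with peaks had fewer over the 13 lists, from 51 at IL7R and 41 at CD79A, a signalling chain of the B cell receptor, to 5 each at EBF1, RAG1 and RAG2. IL7R had 3 and 10 CTBP2 peaks without dox and 1 and 4 with dox, and 7 and 1 EVI1 peaks without dox and 4 and 6 with dox, so that its groups overlapped for both proteins. LCK had 3 and 4 CTBP2 peaks without dox and 3 and 2 with dox, and TCF7, a T cell partner of Wnt signals like LEF1, had 4 and 2, then 2 and 0. In both, the groups met at 1 value. IKZF3, the Aiolos factor of later lymphoid cells, had 1 and 2 CTBP2 peaks without dox and 0 and 2 with dox. BLNK had 3 and 2 CTBP2 peaks without dox and none with dox, while its EVI1 peaks were 2 and 3 without dox and 2 and 2 with dox. BCL11B had 1 and 1 CTBP2 peaks without dox and none with dox, and 3 and 9 EVI1 peaks without dox and 0 and 1 with dox.

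Sites were then followed one by one. A site was an interval called in both untreated libraries of a target, and it was counted as kept in a dox library that had a peak over it. The members had 86 CTBP2 sites at 23 of the 29 genes (79.3%, against 66% of all other genes) and 96 EVI1 sites at 23 genes (against 68.7%). Of the CTBP2 sites, 51 were intergenic, 28 lay in introns, 6 in exons outside coding sequence and 1 in a coding exon. Of the 86 sites, 39 (45.3%) were kept in dox replicate 1 and 40 (46.5%) in replicate 2, a mean of 45.9% ± 0.822 (SD, n = 2), against 48.6% ± 3.49 at all other genes. Of the EVI1 sites, 91.7% and 75.0% were kept, a mean of 83.3% ± 11.8, against 85.0% ± 5.13. For both proteins, the 29 members differed from all other genes by less than the larger of the 2 SDs. Without NOTCH1 and IKZF1, a choice made after seeing the values, 41.2% ± 2.08 of member CTBP2 sites were kept. This share, from 68 sites, lay below the 48.6% at all other genes. These SDs are over the 2 dox libraries and do not cover the counting error of the sites. The differences between members and other genes were not tested. For EVI1 the share without these genes was 81.8% ± 11.0. With the CTBP2 lists cut to equal length, 71.4% of member CTBP2 sites were kept. With sites taken from untreated replicate 1 alone (replicate 2 left out), 24.4% of CTBP2 sites were kept, and with sites from untreated replicate 2 alone, 37.2%. For EVI1, sites from untreated replicate 2 alone gave 51.1%. The shares at equal length and from 1 untreated library were computed for the members only.

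With the sites of all genes divided by the fold enrichment in untreated replicate 1 into 5 groups of equal size, 90.0% ± 4.71 of the 15 member CTBP2 sites in the strongest group were kept, against 87.8% ± 3.97 at other genes. In the second group, 63.9% ± 3.93 of 18 member sites were kept, against 60.02% ± 5.70, and in the middle group 25.0% ± 8.16 of 26, against 41.8% ± 4.85. In the fourth group, 38.2% ± 12.5 of 17 member sites were kept, against 30.3% ± 2.46, and in the weakest 15.0% ± 7.07 of 10, against 22.9% ± 0.497. At other genes the share was higher in each stronger group, while at the members the middle group lay below the fourth. The members lay above other genes in 3 of the 5 groups and below in 2. CTBP2 sites that also were an EVI1 site in untreated cells numbered 71 of 86 (82.6%, against 83.1% at other genes). Of these 71, 52.1% were kept in each dox library, against 54.8% ± 4.26 at other genes. Of the 15 without EVI1, 16.7% ± 4.71 were kept, against 17.8% ± 0.249. The sites without EVI1 were also weaker, with a median fold enrichment of 6.18 against 9.09 for those with EVI1, and their parts in the kept share were not told apart.

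At sites that stayed called in all 4 CTBP2 libraries, the peaks were lower with dox. The 30 such member sites had a median fold enrichment of 12.4 and 10.5 without dox and 5.60 and 6.19 with dox. The mean was lower with dox at 29 of the 30, and both dox values were below both untreated values at 20 (66.7%, against 74.0% at other genes). The median log2 ratio was -0.87, against -0.91 at other genes. At the 70 member EVI1 sites called in all 4 libraries, the medians were 7.39 and 9.73 without dox and 7.51 and 6.20 with dox, and the median log2 ratio was -0.31, against -0.25. Fold enrichment was not normalised between libraries.

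Of the 23 members with a CTBP2 site, 5 had no CTBP2 peak with dox at any of their sites (21.7%, against 21.5% of all other genes): GATA3 with 4 sites, BLNK with 2, and BCL11B, CD3D and CD4 with 1 each. CD3E was the only member with all its sites (3) kept in both dox libraries, and 13 members had at least 1 such site. For these counts by gene, and the same count for EVI1 below, no share of all other genes is given. By site, 34.9% of member CTBP2 sites were kept in both dox libraries, against 38.3% at other genes. For EVI1 sites this was 72.9%, against 78.8%. IKZF1 had 9 sites, of which 6 were kept in both dox libraries, and LAT had 7, of which 5 were. NOTCH1 kept 3 of 9 in both, and PAX5 and CD5 kept none of 5 and 7 in both. For EVI1, none of 23 members was without a peak with dox at all its sites, against 2.5% of all other genes, and 22 of the 23 had at least 1 site called in both dox libraries. The exception was BCL11B, a T cell commitment factor, with 2 EVI1 sites, neither kept in both.

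Sites that lost CTBP2 could keep EVI1. Of the 37 member CTBP2 sites at which neither dox library had a CTBP2 peak, 25 were EVI1 sites in untreated cells. Of these 25, 24 had an EVI1 peak in dox replicate 1, 17 in replicate 2 and 16 in both (64.0%, against 70.9% at other genes).

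The 6 strongest member CTBP2 sites of untreated replicate 1 were all still called in both dox libraries. They were an intergenic site 24619 bp downstream of the LAT TSS, an intergenic site at -42235 bp from the NOTCH1 TSS, an intronic site of ZAP70 5185 bp from the TSS, a site nearest to CD3E, a site at -1042 bp from the LCK TSS, and the site at -90498 bp from the IKZF1 TSS. At LAT (chr16:29020203-29021215), the CTBP2 fold enrichment was 31.8 and 25.3 without dox and 13.9 and 6.32 with dox, and the EVI1 fold enrichment was 56.3 and 86.4 without dox and 51.5 and 37.5 with dox. At ZAP70 (chr2:98334635-98335623), CTBP2 had 27.8 and 16.5 without dox and 3.63 and 4.36 with dox, and EVI1 had 23.5 and 32.1 without dox and 11.8 and 8.76 with dox. Both proteins were lower in both dox libraries at these sites, and at ZAP70 no CTBP2 peak had been called in unmodified MUTZ3 cells.

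At NOTCH1 (chr9:139481264-139483740), CTBP2 had 30.9 and 21.1 without dox and 8.74 and 8.99 with dox. At LCK (chr1:32715080-32716187), CTBP2 had 23.5 and 20.7 without dox and 5.46 and 3.58 with dox, and at IKZF1 (chr7:50251272-50254079), 23.2 and 19.1 without dox and 7.22 and 9.46 with dox. EVI1 at these 3 sites was between 16 and 47.5 without dox and between 8.17 and 25.1 with dox. At CD3E, CTBP2 had 27.6 and 16.2 without dox and 17.6 and 12.2 with dox, and EVI1 had 23.4 and 34.6 without dox and 41.7 and 29 with dox. CD3E was the one of the 6 sites where the CTBP2 values of the groups overlapped.

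The 6 strongest member CTBP2 sites where neither dox library had a CTBP2 peak were at CD3D, CD4, PAX5, GATA3, CD5 and CD247. At CD3D, the delta chain of the receptor complex (chr11:118209324-118209885, 3859 bp downstream of the TSS with the summit past the gene's end), CTBP2 had 13.5 and 10.3 without dox, and EVI1 had 9.64 and 12.5 without dox and 5.94 and 4.70 with dox. At CD4 (chr12:6901232-6902208, intron), CTBP2 had 10.9 and 11.5, and EVI1 had 8.58 and 17.6 without dox and 4.82 and 4.12 with dox. EVI1 thus remained called at both, at lower values. At CD247 (chr1:167423888-167425637, an exon outside coding sequence), CTBP2 had 9.50 and 8.74, and EVI1 had 6.02 and 12.5 without dox and 3.83 and 3.15 with dox.

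At PAX5 (chr9:37027440-37028127, intron), CTBP2 had 9.97 and 3.05 without dox, and EVI1 had 6.07 and 10.2 without dox and 3.52 in dox replicate 1. At GATA3 (chr10:8179633-8180113, 92452 bp downstream of the TSS), CTBP2 had 9.84 and 7.11, and EVI1 had 7.25 and 8.20 without dox and 4.57 in dox replicate 1. At CD5 (chr11:60859636-60860158, -10013 bp from the TSS), CTBP2 had 9.68 and 5.39, and EVI1 had a peak in untreated replicate 2 (9.51) and dox replicate 1 (6.67). At these 3 sites, no EVI1 peak was called in dox replicate 2. In MOLM1, all 6 sites had a CTBP2 peak, with a fold enrichment between 3.28 and 14.8.

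**Figure D3:**
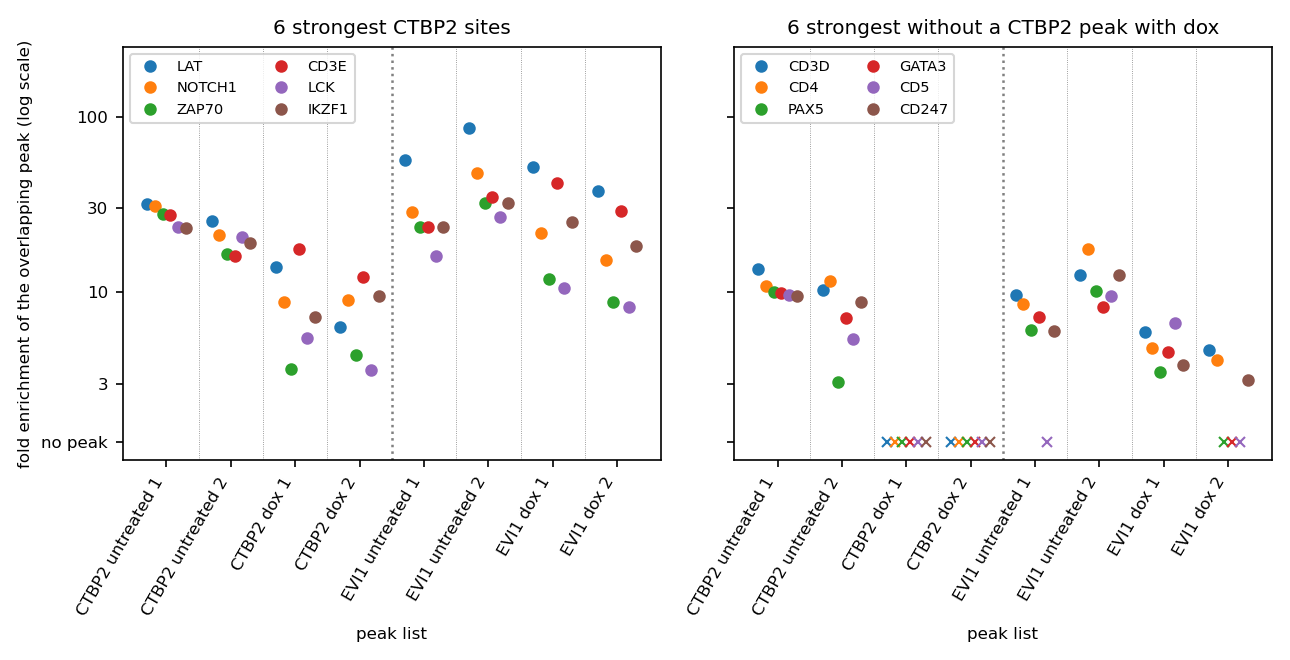
Fold enrichment (vertical axis, log scale) of the peak that overlapped each of the 6 strongest member CTBP2 sites (left) and the 6 strongest without a CTBP2 peak with dox (right) in the 8 lists of the inducible cells, CTBP2 left of the heavy dotted line and EVI1 right of it. Crosses mark lists without a peak. On the left, CD3E alone has CTBP2 values with dox (17.6 and 12.2) that overlap those without (27.6 and 16.2), and on the right EVI1 peaks were called at all 6 sites in dox replicate 1.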

How the data were processed

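Peak lists of 13 ChIP-seq libraries were used. Reads had been aligned by the authors with bowtie (hg19), and MACS2 was run per library at its defaults with a matched input. The submitters' processing notes give Bowtie 1.1.1 and MACS2 2.1.2. The deposited fold enrichment is a ratio of summit signal over local background, and the significance at the summit was deposited as −log10 p and −log10 q. They were used only to rank, describe or filter peaks. No read counts are in the lists, so depth is unknown, and intervals cover counting error only.

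The hg19 peaks lie within the chromosomes of GRCh37. Each summit was given to the nearest TSS of 20163 protein-coding genes of GENCODE release 44 mapped to GRCh37, 1 TSS per gene, within 100 kb, and called a promoter peak within 1 kb. Peaks on other sequences were not assigned. Overlaps needed 1 bp. Intervals are Wilson intervals at the 95% level. The members, the gene lists and the tests were chosen with earlier results of these data known. Peak numbers are given for the members with the most peaks over all lists, strongest peaks for the 8 best-ranked members in each unmodified list, and sites for the 6 strongest CTBP2 sites and the 6 strongest lost with dox. PAX5 was added since it tied for the tenth place. Groups followed the labels. An exact permutation test (two-sided) was run on peak numbers, and the other comparisons are descriptions. Sequences were read from the GRCh37 genome. Assignment and overlap were tested on simulated lists and checked against bedtools 2.31.1. The software was pysam 0.24.0, scipy 1.17.1, pandas 2.3.3, numpy 2.4.6, matplotlib 3.10.9 and Python 3.11.15. The sequence and position of 1 of the 12 sites are not reported here. The other samples of the study were not analysed here.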

Additional observations from a re-analysis of the deposited data

How the results depend on the processing

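The alternatives were limits of 5 on −log10 q and of 5 on fold enrichment, the TSS of every protein-coding transcript, a limit of 50 kb, a promoter of 2 kb, lists of equal size, an overlap of 50%, sites called in either untreated library, libraries left out in turn and same-numbered libraries compared. Of 102 values, 18 moved by more than the replicate spread, the interval or 1.5 times the count, and none changed direction. The log2 ratios of peak numbers are not among the 18, since they were judged by direction and test only, and no p could pass a threshold. That of CTBP2 went from -1.45 to -0.13 with lists of equal size, a cut that also removes any change in number shared by all genes. The kept share of member CTBP2 sites (45.9%) was 37.7% at a fold enrichment of at least 5, 71.4% with lists of equal size, 23.5% with sites of either library and 24.4% to 46.5% with libraries left out. That of EVI1 (83.3%) was 67.4% at that limit, 83.5% with lists of equal size, 49.2% with sites of either library and 51.1% to 91.7% with libraries left out. A site of 1 library is by construction less often repeated than one called in both. With lists of equal size, 2 in place of 17 members had fewer CTBP2 peaks in both dox libraries. The 5 members with fewer EVI1 peaks were 3 at the q limit, 8 at the fold enrichment limit and 5 to 18 with libraries left out. Members with a CTBP2 peak in 4xPLASS cells numbered 9 to 23 with a library left out. Chosen after seeing the data, leaving out NOTCH1 and IKZF1 gave 41.2% of CTBP2 sites kept.

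The labels do not say whether same-numbered libraries were paired. Deviations of same-numbered untreated and dox libraries had a correlation of 0.0796 across genes for CTBP2 and -0.173 for EVI1. With 2 replicates per group these values cannot settle the pairing, and the main comparisons did not use it. With the replicate block, 31.5% of member CTBP2 sites and 61.8% of EVI1 sites were kept, 20 and 5 members had fewer peaks, and the log2 ratios were -1.44 and -0.28. The crossed pairing, chosen after seeing the data, gave 9 members with fewer EVI1 peaks. With 1 or 2 libraries per group and unknown depth, a loss of weak peaks could not be separated from a shorter list.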
